A study of Homo sapiens with 42 samples.

Results

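ACLY, ACSS2, ME1, SCD and FADS2 are enzymes that supply and use acetyl-CoA, NADPH and acyl chains in fatty acid synthesis, and all 5 were found by symbol among the 8738 genes of the deposited table. The cells were 2 established human pancreatic cancer lines, MiaPaCa-2 and PANC-1. Each line received 1 of 3 statins (fluvastatin, lovastatin, simvastatin), at 2 µM or at 20 µM, or served as a control, which gave 14 groups of 3 libraries by the labels. The cells were kept at passages 12 to 15 in medium with 10% fetal bovine serum under 10% CO2. The serum is an outside source of cholesterol and fatty acids that every group shared. Treatment time and control vehicle were not given in the sources used here. Each line stands for a single tumour, and the labels do not say that libraries of a group came from separate cultures, so the p-values measure the spread between libraries, which may be technical. The series compares a low with a high statin concentration.

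Fatty acid synthesis starts from cytosolic acetyl-CoA. ACLY, ATP citrate lyase, makes it from citrate exported from mitochondria, and ACSS2, acyl-CoA synthetase short chain family member 2, makes it from acetate. ME1, the cytosolic malic enzyme, turns malate into pyruvate and yields NADPH, the reductant of chain synthesis. SCD, stearoyl-CoA desaturase, puts the first double bond into saturated acyl chains to make oleate and palmitoleate, and FADS2, the delta-6 desaturase, acts at the first step from dietary linoleic acid to longer polyunsaturated chains. Statins block HMG-CoA reductase, the step that makes mevalonate, and low sterol releases the SREBP transcription factors from the endoplasmic reticulum. SREBP-2 acts chiefly on cholesterol genes and SREBP-1c chiefly on fatty acid genes, and the genes described here are textbook SREBP targets. ME1 is also a target of NRF2, the regulator of antioxidant genes. Fluvastatin is fully synthetic. Lovastatin, a fungal product, and simvastatin, made from it, are given as lactones, and simvastatin carries an additional methyl group on the side-chain ester.

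Values are FPKM, which divides fragments by transcript length and library size, so levels of different genes can be set side by side. Changes are log2 differences on the FPKM + 1 scale, given ± their standard error (SE). Calls were made with limma, two-sided, at an adjusted p under 0.05, with Benjamini-Hochberg adjustment over all genes tested in that comparison. Of the deposited columns, 2 were exact weighted sums of other columns (MiaPaCa-2 control 3 and MiaPaCa-2 lovastatin 20 µM 3) and were left out, so those groups have n = 2 and every other group has n = 3. The remaining 40 libraries were independent columns. Total counts are not in a table of log2 FPKM, so depth is unknown. Of 10 epithelial markers, 9 were in the table, and they did not all differ between the lines. The keratin genes KRT8, KRT18 and KRT19 had group means of at least 135 FPKM in both lines. CDH1 and EPCAM were at most 1.15 and 10.2 FPKM in MiaPaCa-2 and at least 26.0 and 41.3 FPKM in PANC-1. The ranges of the others overlapped between the lines. MUC1 had 18.8 to 849 FPKM in MiaPaCa-2 and 29.1 to 88.4 FPKM in PANC-1. CLDN1 had 8.33 to 40.8 and 21.8 to 31.0 FPKM, CLDN4 42.4 to 200 and 66.9 to 282 FPKM, and S100P 0.95 to 43.8 and 1.86 to 151 FPKM. Of 5 mesenchymal markers, 4 were in the table, and they did not all differ in the same direction. VIM had group means of 2972 to 4367 FPKM in MiaPaCa-2 and 1710 to 2660 FPKM in PANC-1. ZEB1 had 10.2 to 20.1 FPKM in MiaPaCa-2 and 5.03 to 8.35 FPKM in PANC-1. CDH2 went the other way, with at most 0.922 FPKM in MiaPaCa-2 and at least 16.2 FPKM in PANC-1. SPARC was at most 9.21 FPKM in MiaPaCa-2 and 4.43 FPKM in PANC-1. Of 8 fibroblast markers, 3 were in the table: COL1A1 (0.72 to 1.62 FPKM in MiaPaCa-2, 66.3 to 158 FPKM in PANC-1), COL1A2 (29.1 to 201 FPKM in MiaPaCa-2, 0.0477 to 3.04 FPKM in PANC-1) and THY1 (at most 0.45 FPKM in MiaPaCa-2 and 29.5 FPKM in PANC-1). Of 6 leukocyte markers, CD68 (at most 35.6 FPKM in MiaPaCa-2 and 48.2 FPKM in PANC-1) and CD14 (at most 6.96 FPKM in MiaPaCa-2 and 2.21 FPKM in PANC-1) were. None of the listed endothelial, acinar and islet, adipocyte and hepatocyte markers was among the genes of the table. In bulk RNA, fewer expressing cells and less mRNA per cell cannot be told apart.

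The promoters are shown because several of the genes moved together in PANC-1 and apart in MiaPaCa-2. The RefSeq promoter table (build GRCh38.p14, 250 bases before to 50 bases after each annotated start) held all 5 genes in 8 entries. The motifs searched, on both strands, were CCAAT, the NF-Y box that often stands beside SREBP sites, GGGCGG, the GC box of SP1, TGACNNNGC, a core of the antioxidant response element read by NRF2, and TCACNCCAC, a sterol regulatory element. Below, capitals mark every match of any of these, with GGGCGG read as CCGCCC and CCAAT read as ATTGG on the other strand. The SCD promoter is chr10:100346983-100347282 on the plus strand, the ME1 promoter is chr6:83431002-83431301 on the minus strand, and the ACSS2 promoter shown, the further downstream of 2 entries, is chr20:34876362-34876661 on the plus strand.
SCD: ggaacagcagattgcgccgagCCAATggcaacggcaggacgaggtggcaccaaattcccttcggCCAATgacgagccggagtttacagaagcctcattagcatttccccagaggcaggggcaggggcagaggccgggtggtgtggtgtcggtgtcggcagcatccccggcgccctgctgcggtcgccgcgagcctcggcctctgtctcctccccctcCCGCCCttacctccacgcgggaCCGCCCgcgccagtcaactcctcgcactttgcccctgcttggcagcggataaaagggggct
ME1: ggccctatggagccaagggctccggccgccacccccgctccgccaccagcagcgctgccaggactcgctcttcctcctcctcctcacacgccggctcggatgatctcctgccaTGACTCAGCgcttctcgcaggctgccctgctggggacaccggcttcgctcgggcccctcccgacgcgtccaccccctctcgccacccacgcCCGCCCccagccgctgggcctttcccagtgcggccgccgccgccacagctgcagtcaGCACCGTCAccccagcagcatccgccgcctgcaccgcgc
ACSS2: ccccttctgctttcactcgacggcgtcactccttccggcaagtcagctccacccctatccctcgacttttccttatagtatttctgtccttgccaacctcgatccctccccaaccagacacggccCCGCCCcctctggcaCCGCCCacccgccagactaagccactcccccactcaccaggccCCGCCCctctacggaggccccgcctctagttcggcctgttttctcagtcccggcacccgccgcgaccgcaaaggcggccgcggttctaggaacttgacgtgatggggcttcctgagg

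SCD held 2 CCAAT boxes, at positions -229 and -186 from the annotated start, and 2 GC boxes. ME1 held 2 matches of TGACNNNGC, TGACTCAGC at position -137 and GCACCGTCA, its reverse orientation, at position 11, and none of the other 4 genes held one in these windows. The ACSS2 window shown held 3 GC boxes and no CCAAT box, and the other ACSS2 entry held 1 CCAAT box, at position -123, and 1 GC box. Both ACLY entries, on the minus strand of chromosome 17, held 2 CCAAT boxes and 4 GC boxes, and 1 of the 2 FADS2 entries, on the plus strand of chromosome 11, held 1 of each. TCACNCCAC was in none of the 8 windows. Of all 35116 promoters of this length, 34.6% held CCAAT, 45.0% held GGGCGG, 13.3% held TGACNNNGC and 1.13% held TCACNCCAC. No overlap between motifs occurred in the printed windows. A match is only a run of letters, and a window without one says nothing of what binds there.

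Without a statin, the lines differed most in FADS2. FADS2 stood at 9.74 and 9.46 FPKM in MiaPaCa-2 controls, against 158, 130 and 118 FPKM in PANC-1 controls, a log2 difference of -3.68 ± 0.15 (adjusted p = 6.8e-19). SCD stood at 144 and 143 FPKM in MiaPaCa-2 controls, against 246, 246 and 258 FPKM in PANC-1 controls (log2 difference -0.80 ± 0.05, adjusted p = 1.2e-15). ACLY was the reverse, with 119 and 139 FPKM in MiaPaCa-2 controls against 62.7, 62.0 and 74.0 FPKM in PANC-1 controls (log2 difference 0.95 ± 0.14, adjusted p = 5.2e-07). The libraries of the lines did not overlap for any of these 3 genes. ACSS2 at 14.1 and 23.6 FPKM in MiaPaCa-2 and 23.3, 21.0 and 14 FPKM in PANC-1 overlapped (adjusted p = 0.88). ME1 at 18.4 and 15.9 FPKM in MiaPaCa-2 and 14.8, 15.0 and 15.2 FPKM in PANC-1 lay apart, but its difference did not pass the test (adjusted p = 0.13). Thus 3 of 5 were called between the lines, where 64.6% of all genes tested were, so the share called was close to the background and the sizes are what describe these genes. Among controls SCD had the highest level of the 5 in both lines, and the lowest was FADS2 in MiaPaCa-2. In PANC-1 ME1 had the lowest mean, but its libraries overlapped those of ACSS2.

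**Figure D1:**
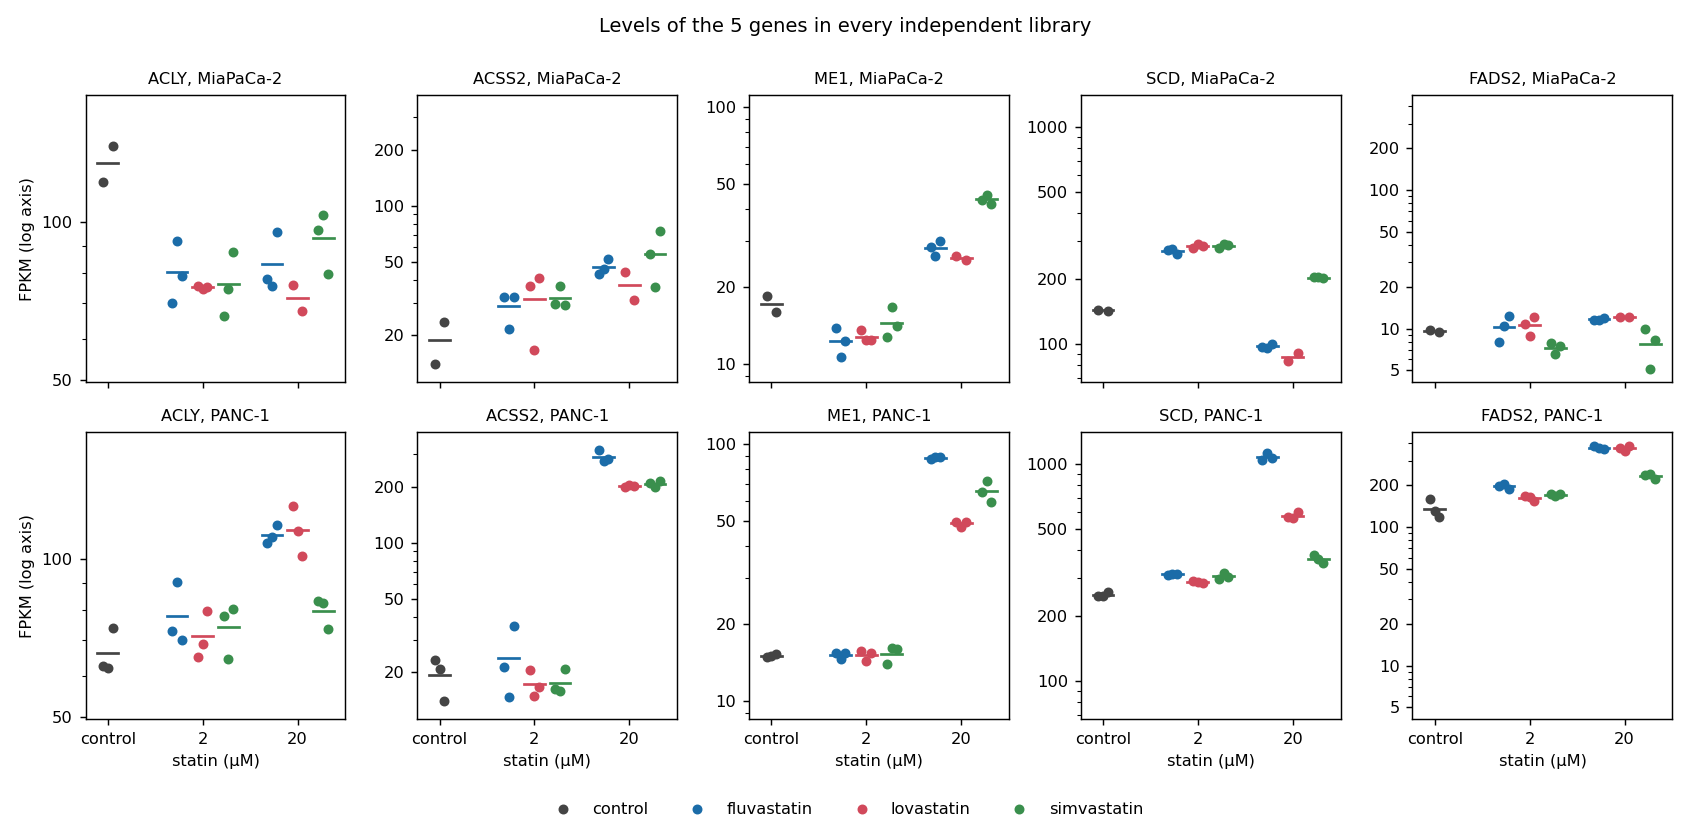
FPKM of the 5 genes (log axis) in every independent library, in MiaPaCa-2 (top) and PANC-1 (bottom), against statin concentration; points are libraries and short lines are group means. In PANC-1 at 2 µM ACLY, ACSS2 and ME1 lie near their controls. SCD lies a little above its controls with every statin, and FADS2 with fluvastatin and simvastatin. At 20 µM in PANC-1 ACSS2, ME1, SCD and FADS2 lie above their controls with every statin. In MiaPaCa-2 ACLY lies below its controls throughout. There SCD lies above its controls at 2 µM and below them at 20 µM with fluvastatin and lovastatin.

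With 20 µM statin in PANC-1, all 5 genes rose with fluvastatin and with lovastatin and 4 of 5 with simvastatin, and none fell. Of all genes tested in that line, 63.4% were called with fluvastatin (32.5% higher, 31% lower), 46.3% with lovastatin (23.9% higher, 22.4% lower) and 59.5% with simvastatin (29.4% higher, 30.2% lower). At 2 µM in PANC-1, 2 of 5 rose with fluvastatin, 1 with lovastatin and 2 with simvastatin, and none fell. The background there was small, with 3.95% of all genes called with fluvastatin (2.96% higher, 0.987% lower), 2.81% with lovastatin (1.97% higher, 0.836% lower) and 3.97% with simvastatin (2.69% higher, 1.28% lower).

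In MiaPaCa-2 the 5 genes went both ways. At 20 µM 4 of 5 were called with each statin, of which 2 rose and 2 fell with fluvastatin, 2 rose and 2 fell with lovastatin, and 3 rose and 1 fell with simvastatin. Of all genes tested, 65.4% were called with fluvastatin (32.9% higher, 32.5% lower), 58.9% with lovastatin (28.8% higher, 30.1% lower) and 65.3% with simvastatin (32.2% higher, 33.1% lower). At 2 µM 3 of 5 were called with fluvastatin, 3 with lovastatin and 2 with simvastatin, and 1 rose in each case while the others fell. The shares of all genes were 43.2% with fluvastatin (20.9% higher, 22.3% lower), 45.5% with lovastatin (21.9% higher, 23.5% lower) and 45.5% with simvastatin (21.7% higher, 23.8% lower). The statin groups of a line share its control libraries, so these comparisons are not independent of one another. A table in which so many genes pass makes a call common, and the sizes below carry more than the counts.

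ACSS2, the acetate-using enzyme, had the largest changes of the 5 genes with each statin at 20 µM in PANC-1. In PANC-1 at 20 µM it had 316, 275 and 282 FPKM with fluvastatin, 199, 204 and 203 FPKM with lovastatin and 211, 199 and 215 FPKM with simvastatin, against 23.3, 21.0 and 14 FPKM in controls. Every treated library lay far above every control library. The log2 changes were 3.86 ± 0.22 (adjusted p = 4.4e-11), 3.34 ± 0.22 (adjusted p = 1.1e-09) and 3.39 ± 0.22 (adjusted p = 6.1e-10), which are 14.6-, 10.1- and 10.5-fold. At 2 µM in PANC-1 ACSS2 had 21.3, 14.8 and 35.5 FPKM with fluvastatin, 20.6, 14.9 and 16.6 FPKM with lovastatin and 16.3, 15.8 and 20.8 FPKM with simvastatin. These libraries overlapped the controls, and no change passed the test (adjusted p 0.69, 0.86 and 0.87). The levels of the 2 µM groups and the control could therefore not be ordered.

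In MiaPaCa-2 at 20 µM ACSS2 had 42.7, 45.5 and 51.8 FPKM with fluvastatin, 43.7 and 30.9 FPKM with lovastatin and 54.9, 36.4 and 73.2 FPKM with simvastatin, against 14.1 and 23.6 FPKM in controls. It rose with all 3, by 1.31 ± 0.34 (adjusted p = 0.0031), 0.97 ± 0.37 (adjusted p = 0.034) and 1.48 ± 0.34 (adjusted p = 0.0012). The treated and control libraries did not overlap, and the spread within groups was wide. Without control library 1, the lower of the 2, the changes with fluvastatin and lovastatin were 0.95 and 0.62 and no longer passed the test (adjusted p 0.066 and 0.26), and without lovastatin 20 µM library 1 the lovastatin change was 0.73 (adjusted p = 0.20). At 2 µM ACSS2 had 32.4, 21.6 and 32.3 FPKM with fluvastatin, 36.8, 16.8 and 41.0 FPKM with lovastatin and 29.6, 36.8 and 29.3 FPKM with simvastatin. The changes of 0.61, 0.66 and 0.77 did not pass the test (adjusted p 0.16, 0.12 and 0.076). The simvastatin change passed with the 2 groups fitted alone (adjusted p = 0.034) and in 1 fit over both lines (0.043). It also passed with all 42 columns (0.033), which bring back the control column that is a weighted sum of other libraries. Without lovastatin 2 µM library 2 the lovastatin change of 1.05 passed (adjusted p = 0.01). The simvastatin libraries lay above both controls while those of fluvastatin and lovastatin overlapped them.

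ACLY, the citrate-using enzyme, moved in opposite directions in the lines. In MiaPaCa-2 at 2 µM it had 70.1, 92.0 and 78.9 FPKM with fluvastatin, 75.6, 74.4 and 75.1 FPKM with lovastatin and 66.2, 74.5 and 87.7 FPKM with simvastatin, against 119 and 139 FPKM in controls. At 20 µM it had 77.8, 75.4 and 95.7 FPKM with fluvastatin, 75.7 and 67.7 FPKM with lovastatin and 96.4, 103 and 79.4 FPKM with simvastatin. All treated libraries lay below both controls. ACLY fell in all 6 comparisons of this line, with log2 changes of -0.68, -0.77 and -0.76 at 2 µM (SE 0.14 each; adjusted p 0.0012, 0.00037 and 0.00043) and -0.64, -0.84 and -0.48 at 20 µM (SE 0.14, 0.16 and 0.14; adjusted p 0.00095, 0.00024 and 0.0076). The call with simvastatin at 20 µM rested on control library 2, without which the change was -0.37 (adjusted p = 0.095). Each of the 6 treated groups overlapped its neighbour in the order of means. The ends of that order, simvastatin and lovastatin at 20 µM, did not overlap.

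In PANC-1 at 20 µM ACLY had 107, 110 and 116 FPKM with fluvastatin, 126, 113 and 101 FPKM with lovastatin and 83.1, 82.3 and 73.4 FPKM with simvastatin, against 62.7, 62.0 and 74.0 FPKM in controls. It rose with fluvastatin (0.74 ± 0.11, adjusted p = 2e-05) and with lovastatin (0.77 ± 0.11, adjusted p = 2.6e-05), whose libraries all lay above the controls. With simvastatin the libraries overlapped the controls and the change of 0.26 ± 0.11 just missed the test (adjusted p = 0.054); it passed under median centring (adjusted p = 0.044) and without control library 3 (0.34, adjusted p = 0.023) or simvastatin library 3 (0.32, adjusted p = 0.038). At 2 µM the group means of 77.8, 71.3 and 74.2 FPKM with fluvastatin, lovastatin and simvastatin stood beside 66.2 FPKM in controls, with overlapping libraries and no call (adjusted p 0.34 to 0.75). ACLY shares 156 exon bases with an antisense gene, AC125257.2, in GENCODE v29, and no source used here says whether counting used strand, so reads there cannot be told apart.

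ME1, the NADPH-producing malic enzyme, was level at 2 µM in PANC-1 and far higher at 20 µM. At 20 µM it had 87.2, 89.1 and 89.0 FPKM with fluvastatin, 49.9, 47.7 and 49.7 FPKM with lovastatin and 64.8, 71.9 and 59.4 FPKM with simvastatin, against 14.8, 15.0 and 15.2 FPKM in controls. The 3 statin groups overlapped neither the controls nor each other. ME1 rose by 2.48 ± 0.08 (adjusted p = 9.8e-15), 1.65 ± 0.08 (adjusted p = 1.3e-11) and 2.05 ± 0.08 (adjusted p = 5.6e-13). At 2 µM every library lay between 13.9 and 16.0 FPKM. The 2 µM changes of 0.01, 0.01 and 0.03 had 95% intervals within -0.16 to 0.19, and none was called.

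In MiaPaCa-2 ME1 moved one way at 2 µM and the other at 20 µM. At 2 µM it had 13.8, 10.6 and 12.3 FPKM with fluvastatin, 13.5, 12.4 and 12.4 FPKM with lovastatin and 12.7, 16.7 and 14 FPKM with simvastatin, against 18.4 and 15.9 FPKM in controls. It fell with fluvastatin (-0.46 ± 0.12, adjusted p = 0.008) and lovastatin (-0.39 ± 0.12, adjusted p = 0.017). With simvastatin the change of -0.23 was not called (adjusted p = 0.14), and its libraries overlapped the controls. Without control library 1 neither fall passed (-0.36 and -0.30, adjusted p 0.10 and 0.17), and without simvastatin library 2 the simvastatin change of -0.34 did (adjusted p = 0.042). At 20 µM ME1 had 28.6, 26.2 and 30.2 FPKM with fluvastatin, 26.3 and 25.3 FPKM with lovastatin and 43.5, 45.5 and 42.1 FPKM with simvastatin, all above every control library. It rose by 0.70 ± 0.12 (adjusted p = 0.00014), 0.57 ± 0.14 (adjusted p = 0.0021) and 1.3 ± 0.12 (adjusted p = 1.6e-07).

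SCD, the delta-9 desaturase, was the only one of the 5 called in all 12 statin comparisons. In PANC-1 it was higher in all 6. At 20 µM in that line SCD had 1046, 1120 and 1065 FPKM with fluvastatin, 568, 564 and 598 FPKM with lovastatin and 379, 367 and 350 FPKM with simvastatin, against 246, 246 and 258 FPKM in controls. The 4 groups did not overlap, with fluvastatin highest and simvastatin nearest to the control. SCD rose by 2.10 ± 0.05 (adjusted p = 1.4e-16), 1.20 ± 0.05 (adjusted p = 9.4e-13) and 0.55 ± 0.05 (adjusted p = 2.1e-08). At 2 µM it had 309, 310 and 312 FPKM with fluvastatin, 288, 285 and 283 FPKM with lovastatin and 296, 314 and 301 FPKM with simvastatin. These small rises of 0.31, 0.19 and 0.28 (SE 0.05 each; adjusted p 0.00048, 0.034 and 0.0014) lay above all controls. None of the 3 passed when the 2 groups were fitted alone (adjusted p 0.097, 0.26 and 0.16). The lovastatin call was also lost without any single library of its group (adjusted p 0.12, 0.097 and 0.097) and without control library 1 or 2 (adjusted p 0.085 and 0.082).

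In MiaPaCa-2 SCD was higher than the control with every statin at 2 µM. It had 270, 275 and 260 FPKM with fluvastatin, 276, 290 and 283 FPKM with lovastatin and 276, 289 and 286 FPKM with simvastatin, against 144 and 143 FPKM in controls. It rose by 0.90 ± 0.05 (adjusted p = 5.5e-10), 0.98 ± 0.05 (adjusted p = 1.8e-10) and 0.98 ± 0.05 (adjusted p = 1.5e-10), or 1.87-, 1.97- and 1.97-fold. At 20 µM it had 97.4, 96.3 and 100 FPKM with fluvastatin, 83.7 and 90.8 FPKM with lovastatin and 203, 203 and 202 FPKM with simvastatin. SCD fell with fluvastatin (-0.54 ± 0.05, adjusted p = 6e-08) and lovastatin (-0.71 ± 0.05, adjusted p = 1.1e-08) and rose with simvastatin (0.50 ± 0.05, adjusted p = 1.8e-07). Simvastatin at 20 µM thus lay above the control and below all 2 µM groups, and fluvastatin and lovastatin lay below the control.

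SCDP1, annotated as a processed pseudogene of SCD, is in the table and can share reads with it, so the split of reads between the 2 genes is uncertain. SCDP1 had 57.3, 66.9 and 66.2 FPKM in the MiaPaCa-2 groups with 2 µM fluvastatin, lovastatin and simvastatin, against 36.3 FPKM in the control. At 20 µM it had 22.4, 21.2 and 46.9 FPKM in the same order, so its direction matched that of SCD in all 6 groups. In PANC-1 at 20 µM SCDP1 had 203, 118 and 54.5 FPKM, against 55.3 FPKM in the control. With simvastatin its change of -0.02 was not called (adjusted p = 0.79), unlike the rise of SCD.

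FADS2, the delta-6 desaturase, was higher in PANC-1 with statins and was not called in MiaPaCa-2, where its level was low. In PANC-1 at 20 µM it had 380, 371 and 367 FPKM with fluvastatin, 371, 351 and 386 FPKM with lovastatin and 235, 239 and 223 FPKM with simvastatin, against 158, 130 and 118 FPKM in controls. It rose by 1.47 ± 0.08 (adjusted p = 1.5e-11), 1.45 ± 0.08 (adjusted p = 7e-11) and 0.79 ± 0.08 (adjusted p = 1.5e-07). Fluvastatin and lovastatin overlapped, and simvastatin lay between them and the control. At 2 µM it had 198, 204 and 188 FPKM with fluvastatin, 166, 164 and 153 FPKM with lovastatin and 172, 166 and 174 FPKM with simvastatin. FADS2 rose with fluvastatin (0.54 ± 0.08, adjusted p = 0.00035) and simvastatin (0.34 ± 0.08, adjusted p = 0.016); with lovastatin its libraries overlapped the controls and 0.26 ± 0.08 was not called (adjusted p = 0.088). Control library 1 was the highest control, and without it the lovastatin change of 0.38 passed (adjusted p = 0.0023). The simvastatin call did not pass without control library 2 or simvastatin library 1 or 3 (adjusted p 0.057, 0.054 and 0.058), and neither call passed when the 2 groups were fitted alone (adjusted p 0.096 and 0.27).

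In MiaPaCa-2 every FADS2 library lay between 5.13 and 12.3 FPKM, and the controls at 9.74 and 9.46 FPKM stood inside that range. The 6 changes ran from -0.36 to 0.31 with adjusted p from 0.17 to 0.80. Simvastatin groups had the lowest means, 7.29 FPKM at 2 µM and 7.77 FPKM at 20 µM, against 9.60 FPKM in the control. Without simvastatin 20 µM library 1 its change of -0.49 passed (adjusted p = 0.044). FADS2 shares 490 exon bases with FADS1, the delta-5 desaturase on the opposite strand, and 49 with FEN1 on the same strand. Without strand, reads in the stretch shared with FADS1 cannot be assigned, and those in the stretch shared with FEN1 are uncertain with or without it. In PANC-1 FADS1 averaged 203, 174 and 79.7 FPKM with 20 µM fluvastatin, lovastatin and simvastatin, against 112 FPKM in the control. It fell with simvastatin (-0.50, adjusted p = 0.0017), where FADS2 rose.

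**Figure D2:**
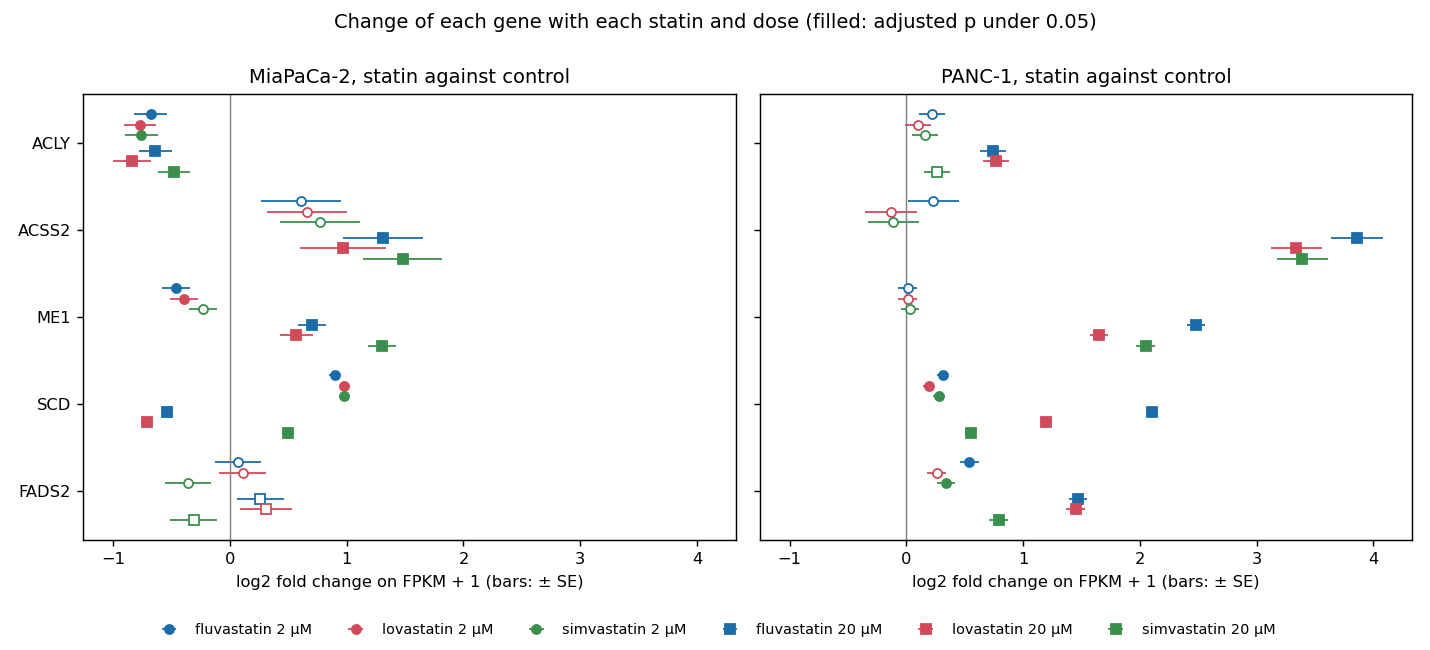
Log2 fold change of each gene with each statin against the control of its line, in MiaPaCa-2 (left) and PANC-1 (right); bars are ± SE, circles are 2 µM, squares are 20 µM, and filled marks passed the test. ACSS2 in PANC-1 at 20 µM stands at 3.34 to 3.86, and SCD in MiaPaCa-2 lies on both sides of 0.

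The doses were compared over the 3 statins together, 20 against 2 µM. In PANC-1 all 5 genes were higher at 20 µM, where 74.1% of all genes were called and 36.8% were called higher. The log2 differences were 3.54 ± 0.13 for ACSS2, 2.04 ± 0.05 for ME1, 1.02 ± 0.03 for SCD, 0.85 ± 0.04 for FADS2 and 0.43 ± 0.07 for ACLY, and the largest adjusted p was 1.3e-05. In MiaPaCa-2, 3 of 5 were called, against 78.5% of all genes. ME1 was higher at 20 µM by 1.22 ± 0.07 (adjusted p = 6.7e-11) and ACSS2 by 0.57 ± 0.18 (adjusted p = 0.0089), and SCD was lower at 20 µM by -1.21 ± 0.03 (adjusted p = 3.8e-16). ACLY (0.09) and FADS2 (0.14) were not called (adjusted p 0.30 and 0.24). For SCD in MiaPaCa-2 each statin gave the same direction, with group means at 20 and 2 µM of 98 and 269 FPKM with fluvastatin, 87.3 and 283 FPKM with lovastatin and 203 and 284 FPKM with simvastatin. The drop with simvastatin was the smallest of these 3, -0.48 ± 0.04, against -1.45 ± 0.04 with fluvastatin and -1.69 ± 0.05 with lovastatin.

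By single statin in PANC-1, 5 of 5 were called at 20 against 2 µM with fluvastatin, 5 with lovastatin and 4 with simvastatin, all higher, where 62.9%, 46.5% and 60.2% of all genes were called and 32%, 23.7% and 29.4% were called higher. ACLY with simvastatin was the exception, at 79.6 FPKM with 20 µM and 74.2 FPKM with 2 µM (0.10, adjusted p = 0.44). In MiaPaCa-2, 2 of 5 were called with fluvastatin, 2 with lovastatin and 3 with simvastatin, where 63.5%, 57.2% and 69.9% of all genes were called. ME1 (higher) and SCD (lower) were called with all 3. The other call with simvastatin was ACSS2 (0.71 ± 0.30, adjusted p = 0.046), which did not pass with a pseudocount of 0.1 (adjusted p = 0.050) or without any of 4 of the 6 libraries compared (adjusted p 0.097 to 0.20).

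The statins were compared in pairs at matched concentrations, in 3 pairs per line and dose. At 2 µM, 0 of 5 genes were called by limma in any of the 6 pairs, where at most 0.562% of all genes were. The shares of all genes called were 0%, 0.562% and 0.293% in MiaPaCa-2 and 0.0116%, 0.0116% and 0% in PANC-1 for fluvastatin against lovastatin, fluvastatin against simvastatin and simvastatin against lovastatin. At an unadjusted p under 0.05, 2 of the 15 differences passed in MiaPaCa-2 and 3 of the 15 in PANC-1. The differences ran from -0.47 to 0.43 in MiaPaCa-2, with 95% intervals within -0.86 to 0.82, and from -0.02 to 0.36 in PANC-1, with intervals within -0.45 to 0.82. These are the outermost bounds over the genes and pairs and not limits of detection, and equal action was not shown. SCD had the tightest bounds. Its simvastatin minus lovastatin interval was -0.09 to 0.10 in MiaPaCa-2 and -0.01 to 0.19 in PANC-1.

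At 20 µM simvastatin and lovastatin, which differ by a methyl group, differed in 3 of 5 genes in MiaPaCa-2 (37.3% of all genes called) and in 4 of 5 in PANC-1 (38.5% of all genes called). SCD differed in opposite directions in the lines. It was higher with simvastatin than with lovastatin in MiaPaCa-2 (1.21 ± 0.05, 95% interval 1.11 to 1.31, adjusted p = 4.5e-11) and lower with simvastatin in PANC-1 (-0.66 ± 0.05, interval -0.75 to -0.56, adjusted p = 3e-08). ME1 was higher with simvastatin in both lines, by 0.74 ± 0.12 in MiaPaCa-2 (adjusted p = 0.00026) and 0.40 ± 0.08 in PANC-1 (adjusted p = 0.00086). FADS2 was lower with simvastatin in both, by -0.62 ± 0.20 in MiaPaCa-2 (adjusted p = 0.025) and -0.66 ± 0.08 in PANC-1 (adjusted p = 6.8e-06). The MiaPaCa-2 FADS2 call rested on single libraries, since it did not pass without lovastatin library 1 or 2 or simvastatin library 2 (adjusted p 0.094, 0.099 and 0.10). ACLY was lower with simvastatin in PANC-1 (-0.50 ± 0.11, adjusted p = 0.0022) and was not called in MiaPaCa-2 (0.36, interval 0.06 to 0.66, adjusted p = 0.056). The MiaPaCa-2 ACLY difference passed with all 42 columns (adjusted p = 0.020), with median centring (0.050), in 1 fit over both lines (0.041) and without simvastatin library 3 (0.022). The 42 columns bring back the lovastatin column that is a weighted sum of other libraries, so that pass rests on no further independent library. ACSS2 was not called in either line, with intervals of -0.21 to 1.23 in MiaPaCa-2 and -0.42 to 0.51 in PANC-1.

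Fluvastatin and simvastatin at 20 µM differed in 3 of 5 genes in MiaPaCa-2 (56.2% of all genes called) and 4 of 5 in PANC-1 (47.5% of all genes called). In PANC-1 fluvastatin gave higher SCD by 1.56 ± 0.05 (adjusted p = 1.3e-13), higher FADS2 by 0.68 ± 0.08 (adjusted p = 2.2e-06), higher ACLY by 0.48 ± 0.11 (adjusted p = 0.0024) and higher ME1 by 0.43 ± 0.08 (adjusted p = 0.00024). The ACSS2 difference there, 0.48 (interval 0.01 to 0.94), was not called (adjusted p = 0.085). Its fluvastatin libraries, from 275 to 316 FPKM, all lay above those of simvastatin, from 199 to 215 FPKM. That difference passed when the 2 groups were fitted alone (adjusted p = 0.003). In MiaPaCa-2 fluvastatin gave lower SCD (-1.04 ± 0.04, adjusted p = 1.2e-11) and lower ME1 (-0.61 ± 0.11, adjusted p = 0.00023) and higher FADS2 (0.57 ± 0.18, adjusted p = 0.014) than simvastatin. That FADS2 difference was 0.34 without simvastatin library 2 and then did not pass (adjusted p = 0.092). SCD and ME1 were thus higher with fluvastatin in PANC-1 and higher with simvastatin in MiaPaCa-2.

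Fluvastatin and lovastatin at 20 µM differed in SCD alone in MiaPaCa-2, 1 of 5 against 23.5% of all genes, and in SCD and ME1 in PANC-1, 2 of 5 against 30.7% of all genes. The MiaPaCa-2 SCD difference was small, 0.17 ± 0.05 (adjusted p = 0.020), and did not pass without fluvastatin library 3 or lovastatin library 1 (adjusted p 0.061 and 0.21). In PANC-1 SCD was higher with fluvastatin by 0.90 ± 0.05 (adjusted p = 6.5e-11) and ME1 by 0.84 ± 0.08 (adjusted p = 2.4e-07). ACLY (interval -0.27 to 0.21) and FADS2 (interval -0.15 to 0.18) were not called in PANC-1. ACSS2 there had a difference of 0.52 (interval 0.06 to 0.99, adjusted p = 0.082), although its fluvastatin libraries, from 275 to 316 FPKM, all lay above those of lovastatin, from 199 to 204 FPKM. It passed when the 2 groups were fitted alone (adjusted p = 0.00089).

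**Figure D3:**
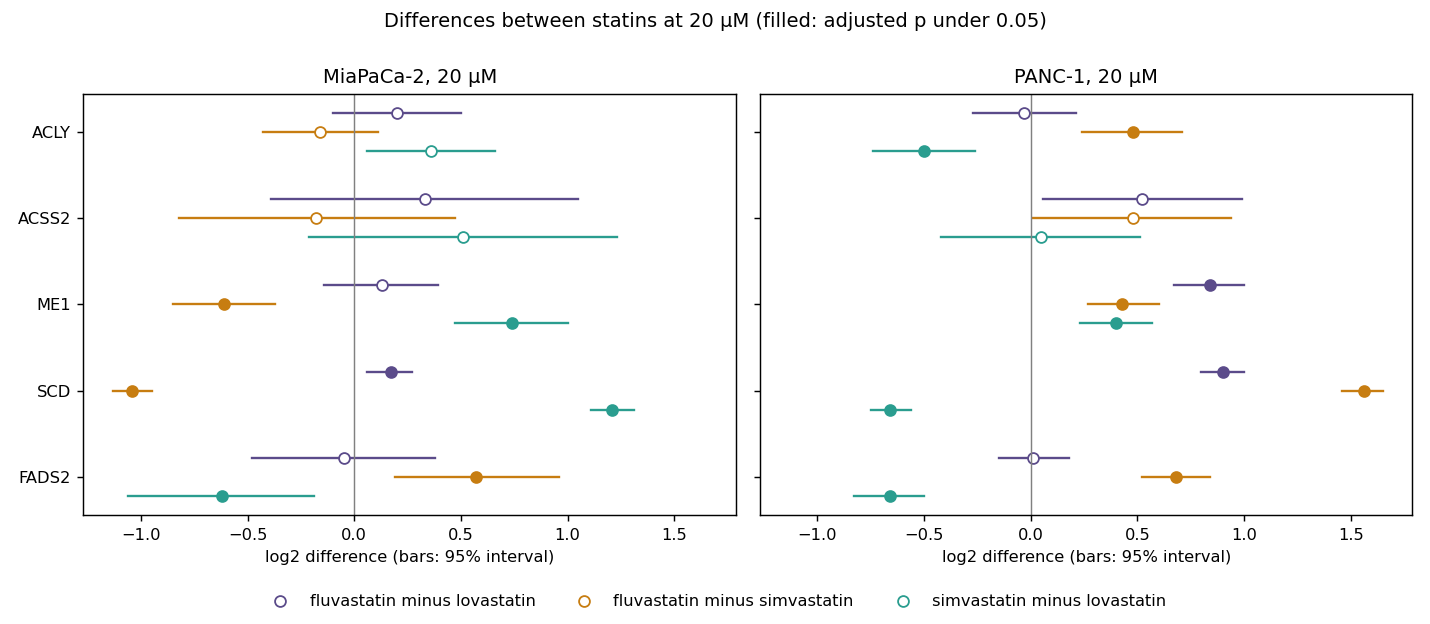
Log2 differences between statins at 20 µM for each gene, in MiaPaCa-2 (left) and PANC-1 (right); points are differences of the first-named minus the second-named statin, bars are 95% intervals, and filled points passed the test. The simvastatin minus lovastatin difference of SCD is 1.21 in MiaPaCa-2 and -0.66 in PANC-1.

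The response of the lines was compared as the mean change over the 3 statins in MiaPaCa-2 minus that in PANC-1. At 20 µM all 5 genes responded less, or in the other direction, in MiaPaCa-2, where 37.6% of all genes were called and 19.9% were called lower. ACSS2 had mean changes of 1.25 in MiaPaCa-2 and 3.53 in PANC-1 (difference -2.28 ± 0.35, adjusted p = 6e-06). SCD had -0.25 in MiaPaCa-2 and 1.28 in PANC-1 (difference -1.54 ± 0.05, adjusted p = 3.5e-20). ACLY had -0.65 in MiaPaCa-2 and 0.59 in PANC-1 (difference -1.24 ± 0.16, adjusted p = 2.3e-07). The signs of SCD and ACLY thus differed between the lines in the mean over statins. ME1 had 0.86 in MiaPaCa-2 and 2.06 in PANC-1 (difference -1.2 ± 0.12, adjusted p = 1.3e-09). FADS2 had 0.09 in MiaPaCa-2 and 1.23 in PANC-1 (difference -1.15 ± 0.17, adjusted p = 5.3e-06).

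At 2 µM, 4 of 5 genes differed in response between the lines, where 40.5% of all genes were called. SCD responded more in MiaPaCa-2, 0.95 there and 0.26 in PANC-1 (difference 0.69 ± 0.05, adjusted p = 8.8e-12). ACLY had -0.74 in MiaPaCa-2 and 0.16 in PANC-1 (difference -0.90 ± 0.16, adjusted p = 3.1e-05). ME1 had -0.36 in MiaPaCa-2 and 0.02 in PANC-1 (difference -0.38 ± 0.11, adjusted p = 0.0093), and FADS2 had -0.06 in MiaPaCa-2 and 0.38 in PANC-1 (difference -0.44 ± 0.17, adjusted p = 0.043). The difference of SCD therefore turned round with dose, 0.69 at 2 µM and -1.54 at 20 µM, and that change of sign was not itself tested. The ME1 and FADS2 calls did not pass without MiaPaCa-2 control library 1 (adjusted p 0.13 and 0.14), which left 2 of 5. The FADS2 call was also lost without each of 11 other libraries (adjusted p 0.051 to 0.15) and with a pseudocount of 0.1 (adjusted p = 0.060). ACSS2, at 0.68 in MiaPaCa-2 and -0.01 in PANC-1, was not called (adjusted p = 0.12). Without MiaPaCa-2 lovastatin 2 µM library 2 its difference of 0.81 passed (adjusted p = 0.034).

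**Figure D4:**
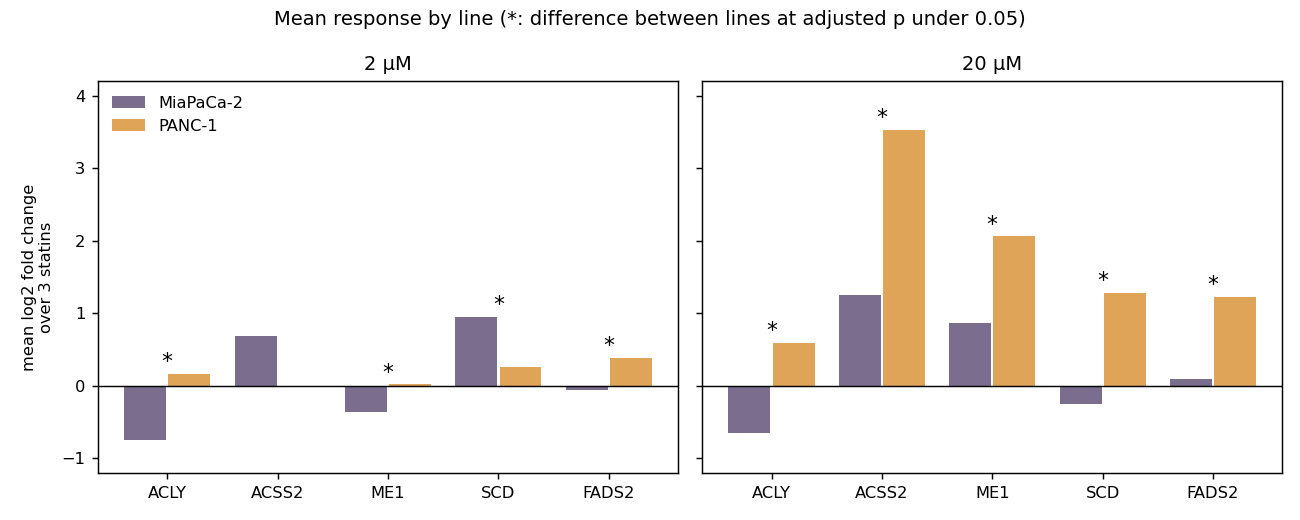
Mean log2 fold change over the 3 statins against the control in MiaPaCa-2 (left bars) and PANC-1 (right bars) at 2 µM and at 20 µM; an asterisk marks a difference between lines that passed the test. At 20 µM every gene has the lower bar in MiaPaCa-2, while SCD at 2 µM has the higher one there.

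Over the 7 group means of each line, the 5 genes varied together in PANC-1 and not in MiaPaCa-2. In PANC-1 all 10 pairs had a Pearson r from 0.80 to 0.99. In MiaPaCa-2 r ran from -0.63, between SCD and FADS2, to 0.75, between ACSS2 and ME1. These are descriptions over 7 points that share the line's control and the step between doses. Over all 14 group means, each line centred on its own mean, the genes whose pattern was nearest were BICD1 (r = 0.915), NPTXR (0.913) and GNE (0.875) for ACLY, and MYO7A (0.983), ATP6AP1 (0.981) and SLC29A2 (0.98) for ACSS2. For ME1 they included SH2D3C (0.987) and S100P (0.982). For SCD they were SCDP1 (0.981), CD164 (0.944) and RCN1P2 (0.906), and for FADS2 they were CASC4 (0.949), TMEM120B (0.933) and BET1L (0.919). ACLY had the loosest nearest neighbours of the 5.

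Of 23 other genes of fatty acid synthesis, elongation and desaturation, 12 were in the table. At 20 µM in PANC-1, 8 rose and 4 fell with fluvastatin, 7 rose and 1 fell with lovastatin, and 5 rose and 4 fell with simvastatin. In those groups 32.5%, 23.9% and 29.4% of all genes rose and 31%, 22.4% and 30.2% fell. FASN, fatty acid synthase, averaged 182, 185 and 236 FPKM with fluvastatin, lovastatin and simvastatin, against 82.5 FPKM in controls. It rose by 1.13, 1.16 and 1.51 (adjusted p 8.8e-10, 2e-09 and 3.7e-11), so simvastatin, with the smallest changes of SCD, FADS2 and ACLY, had the largest group mean of FASN. In MiaPaCa-2 at 20 µM 2, 3 and 5 genes of the list rose and 6, 5 and 5 fell with fluvastatin, lovastatin and simvastatin. Of all genes tested there, 32.9%, 28.8% and 32.2% rose and 32.5%, 30.1% and 33.1% fell. At 2 µM in that line 1, 0 and 0 of the list rose and 6, 5 and 5 fell. Of all genes at that dose, 20.9%, 21.9% and 21.7% rose and 22.3%, 23.5% and 23.8% fell. In MiaPaCa-2 at 2 µM FASN fell with all 3, by -0.82, -0.98 and -0.75 (adjusted p 3.6e-06, 3.9e-07 and 7.2e-06). That was the direction of ACLY and opposite to SCD. ELOVL2, an elongase of polyunsaturated chains, fell in PANC-1 with 20 µM fluvastatin and simvastatin (-1.41 and -0.98; adjusted p 8.3e-08 and 1.1e-05). TECR, the reductase of the elongation cycle, fell at 20 µM in MiaPaCa-2 by -0.65, -1.19 and -1.24, and MCAT, the mitochondrial malonyl transferase, by -0.76, -0.91 and -1.12.

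Of 19 other acetyl-CoA and citrate supply genes, 15 were in the table. At 20 µM 5, 3 and 2 rose and 6, 9 and 10 fell in MiaPaCa-2 with fluvastatin, lovastatin and simvastatin, and 3, 2 and 2 rose and 3, 3 and 6 fell in PANC-1. Of all genes, 32.9%, 28.8% and 32.2% rose and 32.5%, 30.1% and 33.1% fell in those MiaPaCa-2 groups. In those PANC-1 groups 32.5%, 23.9% and 29.4% rose and 31%, 22.4% and 30.2% fell. SLC25A1, the mitochondrial citrate carrier that feeds ACLY, rose in all 6 comparisons of MiaPaCa-2, by 0.91, 0.92 and 0.85 at 2 µM and 0.69, 0.58 and 0.47 at 20 µM, whereas ACLY fell in all 6. It also rose at 20 µM in PANC-1, by 0.76, 0.58 and 0.89. ACAT2, the cytosolic acetoacetyl-CoA thiolase that draws acetyl-CoA towards mevalonate, averaged 295, 319 and 328 FPKM at 20 µM in PANC-1, against 42.6 FPKM in controls, and rose by 2.76, 2.88 and 2.92. In MiaPaCa-2 at 20 µM ACAT2 fell by -1.17, -0.82 and -0.68. PDHA1, a subunit of pyruvate dehydrogenase, and PDK3, a kinase that inhibits it, were called lower with every statin at 20 µM in both lines. Their PANC-1 controls were widely spread, at 168 ± 37.9 FPKM for PDHA1 and 4.32 ± 3.52 FPKM for PDK3 (SD, n = 3), and those calls were not repeated with single libraries left out. At 2 µM in MiaPaCa-2 PDK3 rose by 2.29, 2.43 and 2.31. A list of 16 other enzymes of NADPH production and the pentose phosphate pathway had 13 measured. Of these, 7, 6 and 7 rose in PANC-1 at 20 µM and 3 fell with each statin. In MiaPaCa-2 at 20 µM 3, 4 and 6 rose and 6, 4 and 2 fell. The shares of all genes in these groups are those given above. At 2 µM in MiaPaCa-2 2 of the list rose with each statin and 5, 6 and 7 fell. Of all genes in those groups, 20.9%, 21.9% and 21.7% rose and 22.3%, 23.5% and 23.8% fell. TKT, transketolase, a pentose phosphate enzyme that itself makes no NADPH, rose at 20 µM with every statin in both lines. It rose by 1.37, 0.83 and 0.51 in MiaPaCa-2 and 1.36, 0.60 and 0.62 in PANC-1, while MTHFD1 and IDH2 fell in all 6 comparisons at that dose.

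Of 15 measured of 17 SREBP regulators, 9, 5 and 6 rose and 3, 2 and 5 fell at 20 µM in PANC-1, and 6, 3 and 4 rose and 3, 5 and 4 fell at 20 µM in MiaPaCa-2, with fluvastatin, lovastatin and simvastatin. Of all genes tested, 32.5%, 23.9% and 29.4% rose and 31%, 22.4% and 30.2% fell in those PANC-1 groups. In those MiaPaCa-2 groups 32.9%, 28.8% and 32.2% rose and 32.5%, 30.1% and 33.1% fell. SREBF1, which encodes SREBP-1, and SREBF2, which encodes SREBP-2, moved apart in PANC-1. In PANC-1 SREBF1 averaged 64.2, 50.6 and 44.4 FPKM with fluvastatin, lovastatin and simvastatin, against 119 FPKM in controls, and fell by -0.87, -1.22 and -1.42 (adjusted p 6.7e-05, 3.3e-06 and 3.5e-07). SREBF2 averaged 97.8, 83.0 and 63.5 FPKM with them, against 31.4 FPKM in controls, and rose by 1.61, 1.38 and 1.00 (adjusted p 1.2e-09, 2.9e-08 and 1.2e-06). In MiaPaCa-2 at 20 µM SREBF2 rose by 1.07, 0.84 and 1.5, and SREBF1 fell with lovastatin and simvastatin (-1.06 and -1.02). INSIG2, which holds SREBP in the endoplasmic reticulum, rose at 2 µM in MiaPaCa-2 by 2.85, 2.81 and 3.04, with 74.6, 72.3 and 85.1 FPKM against 9.58 FPKM in controls, and SCD rose in the same groups. At 20 µM in that line INSIG2 rose with fluvastatin (0.94, adjusted p = 0.017), where SCD fell. It was not called with lovastatin (0.44, adjusted p = 0.30), where SCD fell, or with simvastatin (0.63, adjusted p = 0.095), where SCD rose. The lovastatin libraries were widely spread, at 15.5 ± 12.1 FPKM (SD, n = 2). The part of INSIG2 in the changes of SCD was not tested.

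Of 21 measured of 22 sterol-arm SREBP targets, 20 rose with fluvastatin, 20 with lovastatin and 21 with simvastatin at 20 µM in PANC-1, none fell, and the list medians were 1.89, 1.83 and 1.88. The medians of ACLY, ACSS2, ME1, SCD and FADS2 were 2.10, 1.45 and 0.79 in the same groups, where all genes tested had medians of 0.015, -0.003 and -0.007. In MiaPaCa-2 at 20 µM 8, 6 and 11 sterol-arm genes rose and 7, 2 and 3 fell, and at 2 µM 2 rose with each statin and 5, 6 and 5 fell. Of all genes tested in MiaPaCa-2, 32.9%, 28.8% and 32.2% rose and 32.5%, 30.1% and 33.1% fell at 20 µM. At 2 µM in that line 20.9%, 21.9% and 21.7% rose and 22.3%, 23.5% and 23.8% fell. In PANC-1 at 20 µM 32.5%, 23.9% and 29.4% of all genes rose. In PANC-1 at 2 µM 7, 3 and 7 of the 21 rose and none fell, where 2.96%, 1.97% and 2.69% of all genes rose. HMGCS1, which makes HMG-CoA, averaged 241, 205 and 179 FPKM with 20 µM fluvastatin, lovastatin and simvastatin in PANC-1, against 25.9 FPKM in controls, and rose by 3.17, 2.94 and 2.74.

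NRF2 targets other than ME1 had 12 of 14 genes in the table, 11 of them tested in PANC-1. At 20 µM 8, 9 and 9 rose and 2 fell with each statin in MiaPaCa-2, and 10, 10 and 8 rose and none fell in PANC-1, and the medians were 0.82, 1.20 and 1.69 in MiaPaCa-2 and 1.75, 1.19 and 1.87 in PANC-1. Of all genes tested, 32.9%, 28.8% and 32.2% rose in those MiaPaCa-2 groups and 32.5%, 23.9% and 29.4% in those PANC-1 groups. HMOX1, haem oxygenase 1, averaged 32.0, 53.0 and 348 FPKM with 20 µM fluvastatin, lovastatin and simvastatin in MiaPaCa-2, against 15.2 FPKM in controls, and 330, 155 and 304 FPKM in PANC-1, against 27.7 FPKM in controls. GCLC, the catalytic subunit of glutamate-cysteine ligase, rose at 20 µM by 1.87, 2.07 and 2.65 in MiaPaCa-2 and 3.10, 2.10 and 2.06 in PANC-1. As for ME1, GCLC had its largest change with simvastatin in MiaPaCa-2 and with fluvastatin in PANC-1. At 20 µM most genes of the list thus rose beside ME1. At 2 µM the list medians were 0.06, 0.06 and 0.03 in MiaPaCa-2 and -0.16, -0.06 and -0.07 in PANC-1. HMOX1 rose at that dose by 0.71, 0.99 and 0.94 in MiaPaCa-2, where ME1 fell or was not called. In PANC-1 it rose by 0.61, 0.52 and 0.51, where ME1 was not called. At 2 µM 4 genes of the list rose with each statin in MiaPaCa-2 and 1, 0 and 1 fell, where 20.9%, 21.9% and 21.7% of all genes rose. In PANC-1 1, 2 and 1 rose, where 2.96%, 1.97% and 2.69% of all genes did. The part of these genes in the change of ME1 was not tested.

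Among genes of fatty acid activation, storage and oxidation, 21 of 35 were in the table. At 20 µM 11, 6 and 8 rose and 5, 7 and 7 fell in MiaPaCa-2, and 11, 6 and 7 rose and 4, 5 and 7 fell in PANC-1, and the medians at 20 µM were 0.43, 0.25 and 0.07 in MiaPaCa-2 and 0.37, 0.14 and -0.09 in PANC-1. Of all genes tested, 32.9%, 28.8% and 32.2% rose and 32.5%, 30.1% and 33.1% fell in those MiaPaCa-2 groups. In those PANC-1 groups 32.5%, 23.9% and 29.4% rose and 31%, 22.4% and 30.2% fell. PLIN2, a lipid droplet coat protein, rose at 2 µM in MiaPaCa-2 by 2.59, 2.76 and 2.77, with 173, 195 and 196 FPKM against 28.0 FPKM in controls, and by only 0.80, 0.47 and 0.98 at 20 µM. Its level at 2 µM was thus high in the same groups as that of SCD. AGPAT2, an acyltransferase of phosphatidic acid synthesis, rose at 20 µM with every statin in both lines, by up to 2.36 with fluvastatin in PANC-1, and AGPAT5 fell with each. ACADVL, the very long chain acyl-CoA dehydrogenase, rose at 20 µM in MiaPaCa-2 (1.09, 1.04 and 0.67) and fell in PANC-1 (-0.37, -0.37 and -0.28).

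**Figure D5:**
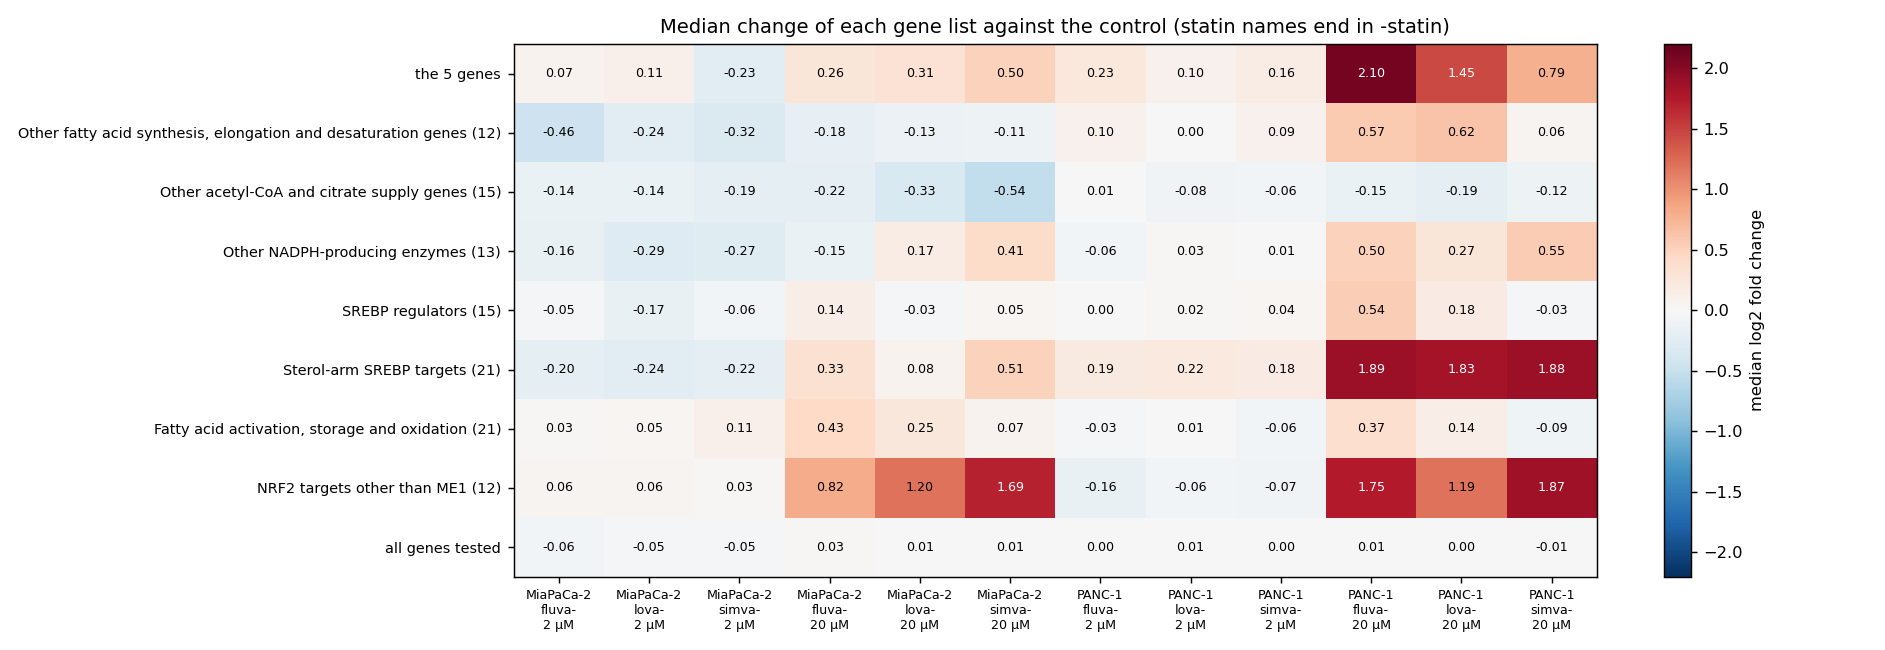
Median log2 fold change against the control of the 5 genes, of 7 gene lists (measured genes in brackets) and of all genes tested, for each line, dose and statin. The row of NADPH-producing enzymes also holds pentose phosphate enzymes that make no NADPH, such as TKT. The sterol-arm row reads 1.89, 1.83 and 1.88 in PANC-1 at 20 µM, where the row of the 5 genes reads 2.10, 1.45 and 0.79.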

How the data were processed

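Messenger RNA of MiaPaCa-2 and PANC-1 cells was measured in 14 groups; per the labels' protocols it was captured on poly-T beads, primed with random hexamers and sequenced paired-end. The submitters' processing notes name hg19 and the tools TopHat2 2.0.13, Cufflinks 1.1 and Cuffdiff. The deposited table holds log2 FPKM for 8738 genes in 42 columns. The lowest value was 0.004240858 with 0 values at 0 or under. They were therefore taken to be log2(FPKM + 1), although no source names the pseudocount. Each column shared at least 97.07% of its values with 4 or more other columns, as in libraries scaled to a shared distribution. The choice of the 8738 genes was not given in the sources used here. Many of them move, so shares called hold for this table.

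The MiaPaCa-2 control 3 column was a sum of control 1 (weight 0.5), control 2 (weight 0.49) and the second PANC-1 fluvastatin 20 µM library (weight 0.01), and the MiaPaCa-2 lovastatin 20 µM 3 column was a sum of library 1 (weight 0.45), library 2 (weight 0.48) and MiaPaCa-2 simvastatin 20 µM library 3 (weight 0.07) (residual at most 5.00e-09 on the log2 scale). Both were left out.

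Genes with at least 1 FPKM in at least 3 libraries were tested: 8534 in MiaPaCa-2, 8615 in PANC-1 and 8738 across both. All 5 genes passed in each. limma 3.58.1 under R 4.3.3 was fitted with 1 mean per group and a robust variance trend, for each line alone and, for contrasts between lines, jointly, in 35 comparisons. Alternatives were a pseudocount of 0.1, no filter or one at 5 FPKM, quantile normalization, median centring, a replicate block, all 42 columns, no variance trend, other sets of samples in the fit, and each library left out in turn.

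The genes, lists and alternatives were chosen with earlier results of these data known. Named were the 5 genes, their 3 nearest genes by Pearson r, and per list up to 4 genes called in most of the 12 comparisons with a control. Of the genes so named, some are not reported here. FADS1 and SCDP1 values beyond that rule were added because they overlap or resemble a gene described. Promoters came from RefSeq (GRCh38.p14), not the authors' build, and exon overlaps from GENCODE v29.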

Additional observations from a re-analysis of the deposited data

Results flagged for a closer look

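The response to statins, as the mean log2 change over the 3 statins in MiaPaCa-2 minus that in PANC-1, differed between the lines by limma's test of the difference itself. At 20 µM the differences were -1.24 for ACLY, -2.28 for ACSS2, -1.2 for ME1, -1.54 for SCD and -1.15 for FADS2. At 2 µM they were -0.90 for ACLY, -0.38 for ME1, 0.69 for SCD and -0.44 for FADS2. Among these called differences, that of SCD has opposite signs at the doses; the ACSS2 difference at 2 µM, 0.68, was not called. Per library, SCD at 20 µM lay below the MiaPaCa-2 controls with fluvastatin and lovastatin and above the PANC-1 controls with every statin. No group of this table has 4 or more libraries, so single libraries were not screened for standing apart.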

How the results depend on the processing

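The 35 counts of genes called moved by at most 1.5 times under a pseudocount of 0.1, no filter, a filter at 5 FPKM, quantile normalization, median centring and all 42 columns. The deposited columns already looked scaled to a shared distribution, so quantile normalization and median centring could change little. They shifted the median log2 change of all genes by at most 0.031 and 0.034, so they say little about dependence on scaling. No strong effect shared by replicate number was seen. Over 81 same-numbered pairs the correlation of deviations ran from -0.091 to 0.15, and 0 of 21 comparisons with 3 pairs had all of them over 0.1. With so few libraries per group this cannot tell whether same-numbered libraries were handled together, and the labels do not say. With a replicate block, PANC-1 lovastatin 2 µM had 0 genes called in place of 1 (SCD, adjusted p = 0.052), and the other 34 counts stayed within that factor. Without the variance trend that count was 0, and the MiaPaCa-2 fluvastatin against lovastatin 20 µM count was 0 in place of 1. With the 2 compared groups alone, that pair count was 0, and PANC-1 fluvastatin, lovastatin and simvastatin at 2 µM had 0, 0 and 0 called in place of 2, 1 and 2. One fit over both lines gave 1 for PANC-1 simvastatin 2 µM. Leaving out single libraries gave counts of 0 to 1 for PANC-1 lovastatin 2 µM, 1 to 2 for PANC-1 simvastatin 2 µM, 0 to 1 for the MiaPaCa-2 fluvastatin against lovastatin pair at 20 µM and 2 to 4 for the difference between lines at 2 µM. The cause was not tested. Where a MiaPaCa-2 control or lovastatin 20 µM library was left out, the lone library was assumed to vary like the other groups.

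Of 136 values of single genes, those that changed sign were all small and uncalled. Against the PANC-1 control at 2 µM, leaving out single libraries gave ME1 -0.003 to 0.04 with fluvastatin, -0.01 to 0.05 with lovastatin and -0.01 to 0.09 with simvastatin, and ACSS2 -0.09 to 0.51, -0.34 to 0.01 and -0.32 to 0.03. ME1 with fluvastatin was -0.004 under median centring. FADS2 in MiaPaCa-2 with 2 µM fluvastatin ran from -0.06 to 0.23, and ACSS2 between the controls of the lines from -0.41 to 0.30. At 20 µM, fluvastatin minus simvastatin for ACSS2 in MiaPaCa-2 ran from -0.44 to 0.06, and fluvastatin minus lovastatin in PANC-1 from -0.11 to 0.05 for ACLY and -0.02 to 0.05 for FADS2. Depth is unknown, and 2 to 3 libraries per group limit precision, most of all for ACSS2 in MiaPaCa-2.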
